A study of Homo sapiens with 10 samples.

Results

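The ATP-binding cassette (ABC) family was examined in the established human meningioma line CH157-MN after exposure to an antibody-drug conjugate. Members were the protein-coding genes of the deposited table whose symbol is ABC, a subfamily letter from A to G and a number. This gave 45 of 58735 genes, or of 19951 protein-coding genes, and 43 of the 45 are described here. The PBS group held 5 libraries from cells given PBS. The ADC group held 5 libraries from cells that received Humanzied SSTR2-MMAF ADC at 100 nM, an antibody to the somatostatin receptor SSTR2 loaded with MMAF, which blocks tubulin, and were harvested 3 days later. A day of harvest is given for treated cells alone. Both groups are the same single cell line, and the labels do not say whether replicates were separate cultures.

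ABC proteins use the energy of ATP to move substrates across membranes, and a few members have lost the membrane part and act on ribosomes instead. Subfamily A and part of subfamily G move cholesterol, phospholipids and other lipids, and the sterol-sensing receptors of the LXR type activate several of them. Members of subfamilies B, C and G include the pumps that export cytotoxic drugs and conjugated metabolites from tumour cells. Other members sit in mitochondria, peroxisomes or lysosomes. By these textbook roles the 43 genes were set in 7 classes, namely 17 lipid exporters, 10 drug and conjugate efflux pumps, 3 mitochondrial members, 2 peroxisomal members, 2 lysosomal members, 4 soluble members of translation and 5 others.

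Libraries held 28262162 to 36463724 counts, and the family took 0.110% to 0.117% of them. Meningioma and arachnoid markers were mostly low: of 12 markers PGR and S100B had 0 counts in all 10 libraries, and MUC1, PTGDS, DSP, CDH1 and TTR averaged under 1 CPM (counts scaled to a common library total) in both groups. VIM, the mesenchymal filament gene, was at 3398 ± 123 CPM in PBS (SD, n = 5). NF2 was at 56.6 ± 3.3 CPM in PBS and was not called (-0.12, SE 0.05, adjusted p = 0.079). LEPR was at 1.38 ± 0.16 CPM in PBS and 2.02 ± 0.32 CPM after ADC. It was not called (0.55, SE 0.23, adjusted p = 0.091), though every ADC library lay above every PBS library. The cadherin gene CDH2 was at 125 ± 4 CPM in PBS and was called lower after ADC (-0.12, SE 0.04, adjusted p = 0.017), a call lost without PBS replicate 1 (adjusted p = 0.053) or with counts scaled to library size alone (adjusted p = 0.061). SSTR2, the antibody's target, was at 0.297 ± 0.263 CPM in PBS and 0.430 ± 0.103 CPM after ADC, and was not called (0.54, SE 0.50, adjusted p = 0.5).

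Promoter sequences of lipid exporters are shown because these genes were higher together after ADC. RefSeq (GRCh38.p14) gave windows from 250 bases before to 50 after a start site for 35 members. Shown here are the 3 lipid exporters that were higher and have a single listed start, on chr9:104928106-104928405 (minus strand), chr16:2340679-2340978 (minus strand) and chr19:1039857-1040156 (plus strand). Capitals mark the searched motifs on either strand.
ABCA1: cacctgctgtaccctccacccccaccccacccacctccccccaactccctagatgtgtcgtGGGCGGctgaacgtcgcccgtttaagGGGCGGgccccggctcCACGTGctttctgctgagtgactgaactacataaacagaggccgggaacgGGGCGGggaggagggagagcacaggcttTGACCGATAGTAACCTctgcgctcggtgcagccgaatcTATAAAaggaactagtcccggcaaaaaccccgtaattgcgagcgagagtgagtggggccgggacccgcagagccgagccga
ABCA3: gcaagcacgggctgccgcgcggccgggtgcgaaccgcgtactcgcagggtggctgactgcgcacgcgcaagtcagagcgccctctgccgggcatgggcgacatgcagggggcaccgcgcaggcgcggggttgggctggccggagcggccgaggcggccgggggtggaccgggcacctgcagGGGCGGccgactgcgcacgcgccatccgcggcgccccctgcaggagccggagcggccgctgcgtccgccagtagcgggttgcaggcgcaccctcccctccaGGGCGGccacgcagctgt
ABCA7: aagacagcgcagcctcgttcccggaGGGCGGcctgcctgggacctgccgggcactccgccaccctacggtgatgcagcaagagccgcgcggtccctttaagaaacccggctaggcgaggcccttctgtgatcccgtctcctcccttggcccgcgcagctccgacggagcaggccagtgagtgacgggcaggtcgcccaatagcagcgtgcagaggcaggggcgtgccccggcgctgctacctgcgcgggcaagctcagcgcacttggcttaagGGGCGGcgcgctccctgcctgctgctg

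Motifs searched on both strands were an imperfect direct repeat with a spacer of 4 bases (DR4, AGGTNANNNNNGGTCA), the kind of element that LXR receptors bind, the E-box CACGTG, the GC box GGGCGG and the TATA box TATAAA. The DR4 letters were loosened so as to hold the known ABCA1 element, after this window had been read. The ABCA1 window holds that element as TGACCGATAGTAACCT from -69 to -54, with an E-box from -147 to -142 and a TATA box from -31 to -26. Only 33 of 35116 windows (0.0940%) hold the imperfect DR4, and ABCA1 is the only family member among them. The strict repeat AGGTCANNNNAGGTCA is in 7 windows and in no window of a member. GC boxes are in windows of 21 of the 35 members, with 45.0% of all windows holding one, E-boxes in 8 members against 7.26% of all windows, and TATA boxes in 8 members against 11.5%. Members with several windows have more chances of a match than these shares per window. ABCA2 has 2 listed starts, of which the window on chr9:137028188-137028487 is 86.7% GC and holds 6 GC box matches, some overlapping, and the other holds none of the motifs. No windows were matched for ABCA4, ABCA8, ABCB4, ABCB5, ABCC1, ABCC3, ABCC8 and ABCG1. A match describes letters and is not evidence that a factor binds there.

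After ADC, 4 lipid exporters of subfamily A rose, ABCC1 was the efflux pump that rose, and none of the mitochondrial members described was called. Of the 43 members 23 had enough counts to be tested, and 6 of these were called at an adjusted p under 0.05 by edgeR, or 26.1%, where 20.8% of all 14504 tested genes were called. The 5 that rose were ABCA1, ABCA2, ABCA3, ABCA7 and ABCC1, with 10.8% of all tested genes called higher. The gene that fell was ABCF2, with 10% of all tested genes called lower. Of all called genes 51.8% were higher, a share of 63.3% with counts scaled to library size alone, and these members kept 5 higher and 1 lower under that scaling. In bulk libraries, a change in the mix of cells and a change in RNA per cell cannot be told apart. For 6 of the 23 all libraries of one group lay beyond all of the other, or 26.1%, beside 14.2% of all tested genes. The median log2 fold change (ADC minus PBS) was 0.14 over the tested members and -0.00 over all tested genes. The count of called members is small, so these shares describe the family and single out nothing about it.

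**Figure D1:**
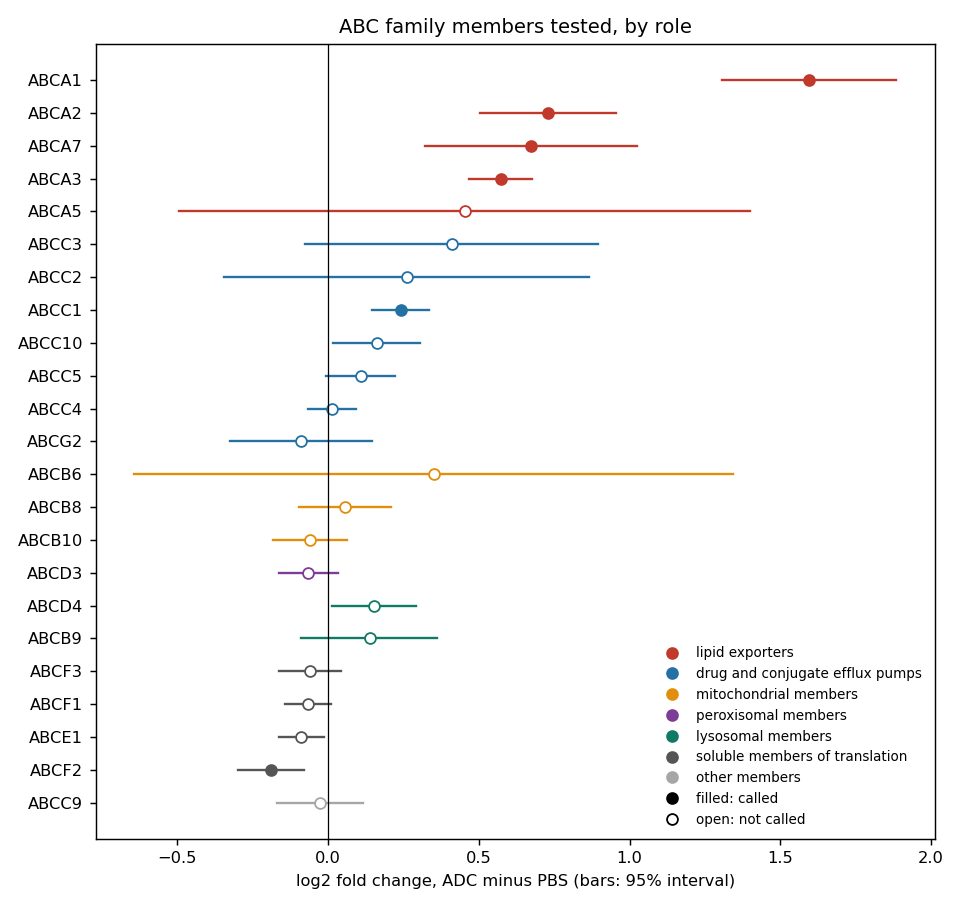
Log2 fold change (ADC minus PBS, x axis) with its 95% interval for 23 tested members, ordered by role, with filled points for called genes. The 4 called lipid exporters stand between 0.57 and 1.60, to the right of every member of the other classes, and ABCF2 is the filled point left of 0.

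Lipid exporters supplied 4 of the 5 members that rose, where 10.8% of all tested genes were called higher. Of 17 in the class 5 were tested, 4 rose, 0 fell and ABCA5 was not called, with a median log2 fold change of 0.67. Their summed level was 50.3 to 56.6 CPM in PBS and 77.9 to 88.6 CPM after ADC, most of it ABCA3. The 12 others were below the count filter, so the median covers a minority of the class.

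ABCA1, the plasma membrane exporter that loads cholesterol and phospholipid onto apolipoprotein A-I, was at 2.59, 2.40, 2.83, 2.05 and 3.15 CPM in PBS replicates 1 to 5. It was at 8.24, 6.09, 8.57, 8.07 and 8.52 CPM in the ADC replicates. Every ADC library lay above every PBS library, and ADC replicate 2 was the lowest treated library. The means were 2.60 ± 0.42 and 7.90 ± 1.03 CPM (SD, n = 5), a log2 fold change of 1.60 (SE 0.14, adjusted p = 6.1e-10), or 3.02-fold. Over the 18 alternative settings the log2 fold change ran from 1.52 to 1.68, with adjusted p from 1.0e-24 (DESeq2) to 5.5e-08 (limma-voom).

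ABCA3 fills the lamellar bodies of lung cells with surfactant lipid and is the most abundant tested member of its class here. Its levels were 40.4, 41.1, 38.2, 44.1 and 40.3 CPM in PBS and 58.9, 56.8, 61.2, 63.0 and 63.8 CPM after ADC. The groups were wide apart beside their spread, at 40.8 ± 2.1 and 60.8 ± 2.9 CPM (SD, n = 5). Its log2 fold change was 0.57 (SE 0.05, adjusted p = 5.2e-10).

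ABCA2, an endosomal and lysosomal lipid transporter abundant in myelinating cells, was at 6.69, 6.25, 5.42, 6.08 and 5.36 CPM in PBS. In ADC libraries it was at 9.60, 8.88, 11.5, 10.7 and 8.80 CPM. No treated library reached down to the PBS range, and the log2 fold change was 0.73 (SE 0.11, adjusted p = 1.2e-05).

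ABCA7, a phospholipid transporter close in sequence to ABCA1, was at 4.31, 1.93, 3.13, 3.75 and 2.56 CPM in PBS and at 5.03, 4.95, 4.36, 4.84 and 5.82 CPM after ADC. The highest PBS library and the lowest ADC library nearly touched, at 4.31 and 4.36 CPM. Its log2 fold change was 0.67 (SE 0.17, adjusted p = 0.0050). ABCA5, a lysosomal member, had single-library counts of 6 to 26 with PBS and 9 to 31 with ADC. It missed the threshold (log2 fold change 0.45, SE 0.46, adjusted p = 0.55), with an interval from -0.49 to 1.40 that holds the changes of ABCA2, ABCA3 and ABCA7.

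**Figure D2:**
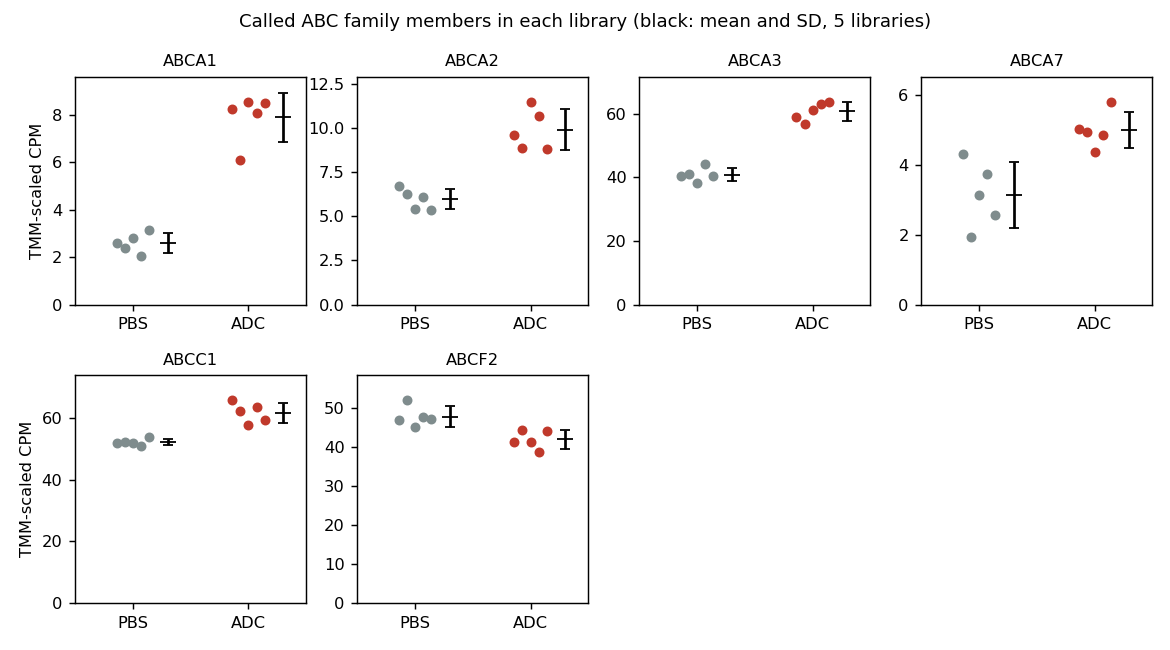
TMM-scaled CPM (y axis, from 0) of the 6 called members in each of the 5 PBS and 5 ADC libraries, with mean and SD in black. The groups lie apart for all 6, most narrowly for ABCA7, with PBS replicate 1 at 4.31 CPM and ADC replicate 3 at 4.36 CPM.

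Other lipid exporters were near or under the detection limit. ABCG1, which passes cholesterol to high-density lipoprotein and is the usual partner of ABCA1 in sterol efflux, had 0 counts in all 10 libraries. At this depth 0 counts allow up to 0.0187 CPM over the PBS libraries together and 0.0185 CPM over the ADC libraries together. These limits cover counting error only, and would be higher if both mates of a read pair were counted. With no count of ABCG1, a comparison of the changes of ABCA1 and ABCG1 could not be made. ABCA6 and ABCA9, neighbours of ABCA5 on chromosome 17, also had 0 counts throughout. ABCA10 of the same cluster had 18 counts over the PBS and 55 over the ADC libraries. ABCA4, the retinal member, known to work as an importer, had 23 and 16 counts, ABCA8 6 and 9, ABCA12, which exports skin lipids, 10 and 6, and ABCA13 2 and 5. ABCG4 had 6 and 13 counts, and ABCG5, of the intestinal sterol exporter, 4 and 3.

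The lipid exporters ABCB4 and ABCG8 were below the filter but were called higher when every gene with a count was fitted. ABCB4, the phosphatidylcholine exporter of bile, had 0, 0, 0, 0 and 1 counts in PBS and 6, 0, 6, 0 and 12 counts in ADC libraries (adjusted p = 0.041). ABCG8, the partner of ABCG5, had 0 counts in PBS and 0, 0, 8, 0 and 8 counts in ADC libraries (adjusted p = 0.047). In both genes at least 2 treated libraries were at 0 as well, so the ranges of the groups overlap. Their counts in ADC libraries are all even, and if both mates of a read pair were counted, fewer fragments lie behind these calls.

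The LXR system was followed in a list of 12 genes outside the family. Among its 11 tested genes 3 rose and 1 fell while 7 missed the threshold, with a median log2 fold change of 0.23. For comparison, 20.8% of all tested genes were called in either direction and 10.8% were called higher. The list is short, and whether its share of calls exceeds that of all genes was not tested. MYLIP, which encodes a ubiquitin ligase of the low-density lipoprotein receptor, was at 1.72 ± 0.34 CPM in PBS and 4.13 ± 0.82 CPM after ADC (SD, n = 5) with a log2 fold change of 1.26 (SE 0.19, adjusted p = 1.1e-05). SREBF1, the regulator of fatty acid synthesis, rose by 0.70 (SE 0.07, adjusted p = 2.6e-09) on levels of 29.04 ± 2.21 and 47.1 ± 4.8 CPM (SD, n = 5). The phospholipid transfer protein gene PLTP rose by 0.40 (SE 0.06, adjusted p = 3.6e-06). RXRB, a partner receptor, fell by 0.13 (SE 0.04, adjusted p = 0.017). Those not called were the LXR genes NR1H3 (0.14, SE 0.13) and NR1H2 (-0.03, SE 0.06), RXRA (-0.09), LPCAT3 (0.23, SE 0.10), SMPDL3A (0.39, SE 0.22), TTC39B (0.25, SE 0.15) and the desaturase SCD (0.04, SE 0.04). APOE, at 0.114 ± 0.127 CPM in PBS, was not tested. Of the 11 listed genes with a promoter window, 0 hold the imperfect DR4 within it. That pattern is in 0.0940% of all windows, too rare for a 0 among 11 genes to set the list apart.

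**Figure D3:**
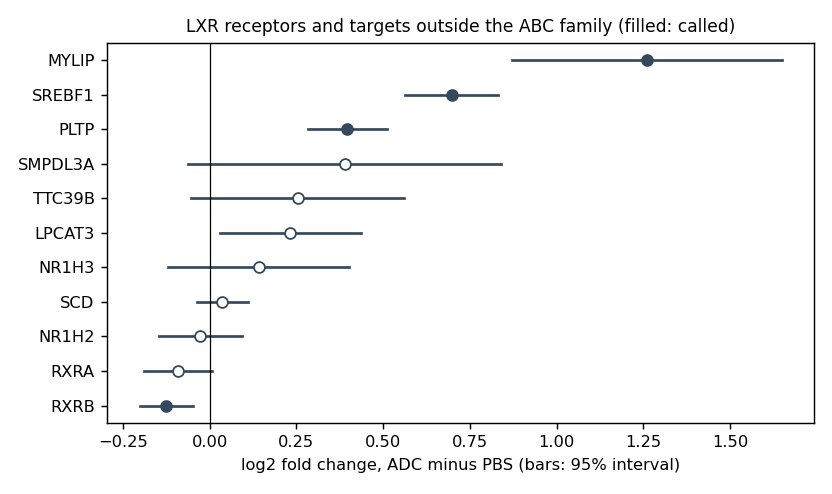
Log2 fold change (ADC minus PBS, x axis) with its 95% interval for the 11 tested LXR receptors and targets outside the family, filled where called. MYLIP (1.26), SREBF1 (0.70) and PLTP (0.40) are the filled points right of 0, and RXRB (-0.13) is the filled point left of it.

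Called genes of sterol handling outside that list had changes below 0.3 in size. Of 11 tested genes of cholesterol uptake, trafficking and storage, 2 rose and 2 fell, with a median of 0.05. Over all tested genes 20.8% were called in either direction. SCARB1, a receptor for high-density lipoprotein, fell by 0.29 (SE 0.04, adjusted p = 2.7e-07), and SOAT1, which esterifies cholesterol for storage, fell by 0.27 (SE 0.04, adjusted p = 1.3e-06). GRAMD1A, a sterol carrier between membranes, rose by 0.26 (SE 0.06, adjusted p = 0.0024) and CAV1 by 0.12 (SE 0.03, adjusted p = 0.0030). Of 11 sterol synthesis genes, all tested, LSS rose by 0.18 (SE 0.04, adjusted p = 0.0015), the reductase DHCR7 fell by 0.26 (SE 0.04, adjusted p = 1.4e-05), and 9 were not called, with a median of -0.06.

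Macrophages express ABCA1 and ABCG1 strongly, so their markers were read beside these changes. The 11 macrophage and other leukocyte markers summed to 0.545 to 2.52 CPM in PBS and 2.13 to 3.15 CPM after ADC, most of it CSF1R, at 1.26 ± 0.68 and 2.10 ± 0.34 CPM (log2 fold change 0.72, SE 0.29, adjusted p = 0.081 by edgeR, though called by limma-voom). TYROBP, FCGR3A, CD3E and MS4A1 had 0 counts in all libraries, and PTPRC, the common leukocyte antigen, had 0 to 2 in each PBS library and 0 in the ADC libraries. CD14, below the filter, had 0, 6, 2, 4 and 10 counts in PBS and 14, 8, 19, 10 and 9 in ADC libraries. It was not called when every gene with a count was fitted (adjusted p = 0.2). Summed over PBS and over ADC libraries, CD163 and ITGAM each had 0 and 4 counts, MRC1 2 and 6 and AIF1 4 and 0. The 8 endothelial markers summed to 1.75 to 3.07 CPM in PBS and 3.42 to 4.88 CPM after ADC, with PECAM1 higher (1.77, SE 0.28, adjusted p = 2.4e-05) and EMCN at 0 throughout. PECAM1 was at 0.576 ± 0.112 CPM in PBS and 1.98 ± 0.34 CPM after ADC (SD, n = 5), and KDR at 1.51 ± 0.60 and 1.49 ± 0.27 CPM. KDR (-0.02, SE 0.28, adjusted p = 0.97) and VWF (0.38, SE 0.56, adjusted p = 0.70) were not called. CDH5, below the filter, had 0 counts in all PBS libraries and 2, 4, 2, 7 and 4 in ADC libraries, and was called higher when every gene with a count was fitted (adjusted p = 0.024). Also below the filter, ERG had 17 and 8 counts summed over PBS and over ADC libraries, CLDN5 2 and 8 and TEK 0 and 2. The part of these markers in the changes of the lipid exporters was not tested.

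Among drug and conjugate efflux pumps ABCC1 was the called member. Of 10 members 7 were tested, 1 rose, 0 fell and 6 were not called, and the median log2 fold change was 0.16. The share called over all tested genes was 20.8%. ABCC1 exports glutathione conjugates and several cytotoxic drugs. Its levels were 52.0, 52.3, 51.9, 51.0 and 54.0 CPM in PBS and 65.9, 62.2, 57.6, 63.6 and 59.4 CPM after ADC. All treated libraries were above all controls, though the gap was small beside the level. The log2 fold change was 0.24 (SE 0.05, adjusted p = 0.00030), or 1.18-fold.

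ABCC4, a pump of cyclic nucleotides and prostaglandins and the most abundant of these genes, was at 126 ± 6 CPM in PBS and 127 ± 5 CPM after ADC (SD, n = 5). Its log2 fold change of 0.01 (SE 0.04, adjusted p = 0.85) had an interval from -0.07 to 0.09. The within-library log2 ratio of ABCC1 to ABCC4 was -1.27 ± 0.08 in PBS and -1.04 ± 0.06 in ADC libraries (SD, n = 5). It was higher after ADC by 0.23 (two-sided exact permutation test, p = 0.00794, the smallest that 252 regroupings can give, adjusted p = 0.0159 over 2 ratios tested), although the highest PBS ratio of -1.18 lay just under the lowest ADC ratio of -1.16.

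The other pumps were not called. ABCC10, which can export taxanes, had a log2 fold change of 0.16 (SE 0.07, interval 0.02 to 0.31, adjusted p = 0.11), and the nucleotide pump ABCC5 had 0.11 (SE 0.06, adjusted p = 0.18). ABCC3 and ABCC2, pumps of conjugated organic anions known from liver, were low at 1.60 ± 0.39 and 1.41 ± 0.39 CPM in PBS, and their intervals ran from -0.08 to 0.90 and from -0.34 to 0.87. ABCG2, the breast cancer resistance protein, was at 7.88, 9.93, 8.55, 9.05 and 8.54 CPM in PBS and 6.01, 9.51, 8.66, 7.90 and 9.25 CPM after ADC. Its groups overlapped widely and the log2 fold change was -0.09 (SE 0.12, adjusted p = 0.65), with an interval from -0.33 to 0.15.

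P-glycoprotein, the best known drug pump, was close to absent at the RNA level. Its gene ABCB1 had 0, 0, 0, 0 and 3 counts in PBS and 2, 0, 0, 2 and 8 counts in ADC libraries, which was under the filter. Fitted with every gene that had a count, it was not called (adjusted p = 0.45), so a difference was not detectable at this depth. ABCC11 had 6 counts over the PBS and 15 over the ADC libraries, and ABCB5 had 0 in all 10.

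**Figure D4:**
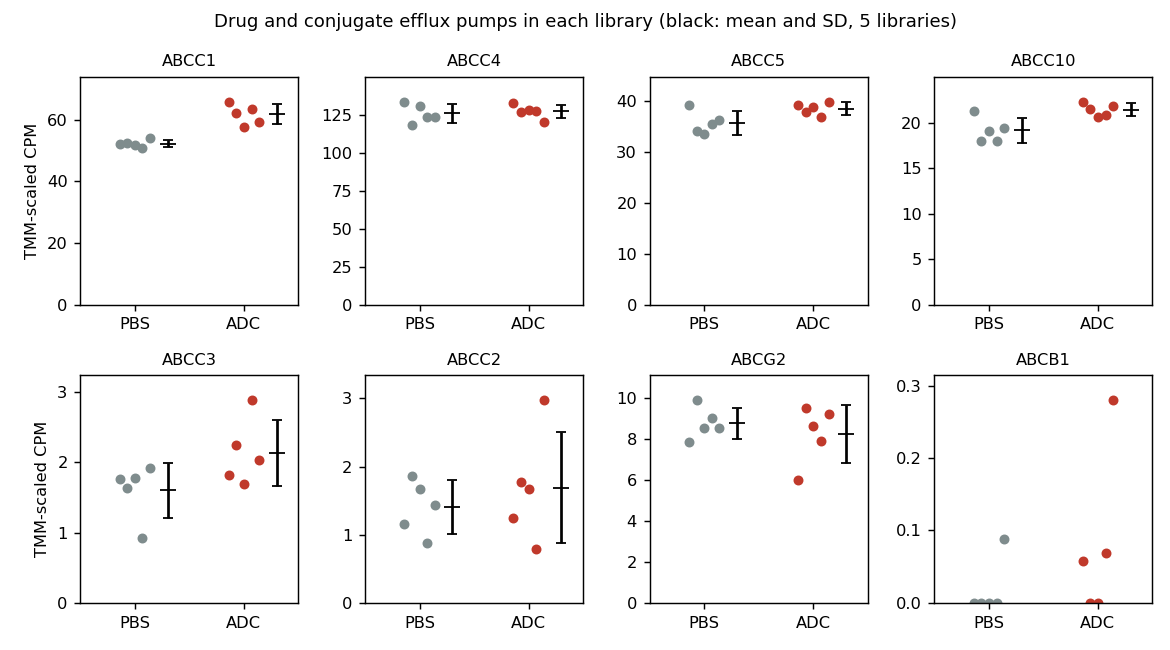
TMM-scaled CPM (y axis, from 0, scaled per gene) of 8 efflux pump genes in each of the 5 PBS and 5 ADC libraries, with mean and SD in black where the mean exceeds the SD. The ABCC1 groups lie apart, the ABCC4 groups overlap near 126 CPM, and ABCB1 stays under 0.3 CPM in every library.

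Genes that sense or conjugate foreign compounds showed small changes in both directions. Among the tested genes of this kind 4 were not called, and 20.8% of all tested genes were called. Of 8 tested members of a list of 12, MGST1, a microsomal glutathione transferase, fell by 0.22 (SE 0.04, adjusted p = 0.00011) and GSTP1 by 0.10 (SE 0.04, adjusted p = 0.043). The aryl hydrocarbon receptor AHR rose by 0.18 (SE 0.06, adjusted p = 0.044) and its partner ARNT by 0.16 (SE 0.05, adjusted p = 0.022). The calls of AHR and GSTP1 were lost without any of several single libraries, at adjusted p of up to 0.13 for AHR (without PBS replicate 1, 2 or 5 or ADC replicate 1, 2 or 4) and up to 0.14 for GSTP1 (without PBS replicate 1, 2 or 3 or ADC replicate 1, 2, 3 or 4). The call of ARNT was lost without PBS replicate 1 (adjusted p = 0.056) or ADC replicate 3 (adjusted p = 0.083).

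Of the 3 mitochondrial members 0 were called by edgeR, DESeq2 or limma-voom, 0 had an unadjusted p under 0.05, and their median log2 fold change was 0.06. ABCB10, an inner membrane transporter linked to haem synthesis, averaged 54.1 ± 4.0 CPM in PBS and 51.8 ± 5.0 CPM after ADC (SD, n = 5), with a log2 fold change of -0.06 (SE 0.06, interval -0.18 to 0.06, adjusted p = 0.53). ABCB8, also of the inner membrane, had 0.06 (SE 0.07, interval -0.10 to 0.21, adjusted p = 0.65). The intervals of both genes lie below the 0.47 to 0.68 interval of ABCA3. ABCB6, a porphyrin transporter, had single-library counts of 4 to 12 with PBS and 9 to 14 with ADC, too few to bound a change (0.35, interval -0.64 to 1.34), and 54.7% of its exonic bases are shared with another gene on its strand. Of 12 genes of iron-sulfur cluster and haem synthesis, all tested, 0 were called by edgeR, DESeq2 or limma-voom and 1 had an unadjusted p under 0.05, with log2 fold changes from -0.20 to 0.20. Over all tested genes 20.8% were called by edgeR. Whether the 3 members or these 12 genes differ from that share was not tested.

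Of the peroxisomal members ABCD3, which imports long and branched-chain fatty acyl groups, was tested. It averaged 60.6 ± 2.9 CPM in PBS and 58.0 ± 3.0 CPM after ADC (SD, n = 5) and was not called (log2 fold change -0.06, SE 0.05, interval -0.16 to 0.03, adjusted p = 0.37). ABCD2 had 12 counts over the PBS and 26 over the ADC libraries. Of 12 genes of peroxisome import and fatty acid oxidation 11 were tested, 0 were called by edgeR, DESeq2 or limma-voom and 1 had an unadjusted p under 0.05, with log2 fold changes from -0.07 to 0.14. By edgeR 20.8% of all tested genes were called, and whether these 11 genes differ from that share was not tested.

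Of the 2 members classed as lysosomal 0 were called by edgeR, DESeq2 or limma-voom and 1, ABCD4, had an unadjusted p under 0.05. By edgeR 20.8% of all tested genes were called, and 2 genes are too few to compare with that share. ABCA2, which was called higher, and ABCA5 are also lysosomal but were classed with the lipid exporters. ABCD4, which exports vitamin B12 from lysosomes together with a partner protein, changed by 0.15 (SE 0.07, adjusted p = 0.12), and the peptide transporter ABCB9 by 0.14 (SE 0.11, adjusted p = 0.42), with 24.5% of its exonic bases overlapped on the other strand. The peptide transporters of antigen presentation, TAP1 and TAP2, belong to the family under other symbols. They were not called either, at 0.21 (SE 0.09, adjusted p = 0.091) and -0.09 (SE 0.05, adjusted p = 0.20).

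The 4 soluble members all had negative estimates, 1 of them called. Among all 14504 tested genes 7186 had a positive estimate, and 20.8% were called in either direction. ABCF2 was at 47.1, 52.2, 45.1, 47.7 and 47.3 CPM in PBS and 41.3, 44.4, 41.3, 38.8 and 44.3 CPM after ADC. Every treated library was below every control, and the gene fell by 0.19 (SE 0.05, adjusted p = 0.011). Of its exonic bases 45.8% are shared with another gene on the same strand, so its own value is uncertain. ABCE1, which splits ribosomes after termination, had a log2 fold change of -0.09 (SE 0.04, adjusted p = 0.093). Leaving out PBS replicate 2 or ADC replicate 2 brought its adjusted p to 0.025 and 0.040, so that it was then called lower. ABCF1, a factor of translation initiation, and ABCF3 were not called (-0.07, SE 0.04, and -0.06, SE 0.05). Of 11 tested genes of ribosome recycling and of the amino acid sensor GCN2, ATF4 rose by 0.19 (SE 0.03, adjusted p = 2.0e-05), the release factor ETF1 fell by 0.11 (SE 0.03, adjusted p = 0.010), EIF2B5 fell by 0.13 (SE 0.04, adjusted p = 0.016), and 8 were not called. The call of EIF2B5 was lost without ADC replicate 1, at an adjusted p of 0.069.

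Of the 5 remaining members ABCC9, a regulatory subunit of potassium channels, was tested and not called (-0.03, SE 0.07, adjusted p = 0.84). Its relative ABCC8 had 0 counts in all libraries. ABCC6, lost in a disorder of ectopic mineralisation, had 25 counts in each group, the bile salt pump ABCB11 had 0 and 2, and ABCC12 had 0 and 1.

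Levels between genes were compared per kilobase of gene model, in PBS libraries. ABCF1 was highest at 56.8 ± 2.2 CPM per kilobase (SD, n = 5) and ABCE1 next at 33.3 ± 1.5. ABCC4 at 14.6 ± 0.7 and ABCF3 at 14.4 ± 0.8 overlapped in range, as did ABCF3 with ABCB10 (12.7 ± 0.9) and ABCB10 with ABCF2 (11.5 ± 0.6). ABCD3 (7.99 ± 0.38), ABCC1 (6.90 ± 0.15), ABCA3 (5.23 ± 0.27) and ABCC5 (3.11 ± 0.20) followed without overlap between neighbours. ABCD4 (2.68), ABCB8 (2.65) and ABCC10 (2.37) overlapped, each with the next, as did ABCC9 (2.04) with ABCG2 (1.74).

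The lipid exporters other than ABCA3 stood low in this order. ABCA2 at 0.518 ± 0.049, ABCA7 at 0.375 ± 0.113 and ABCA1 at 0.229 ± 0.037 CPM per kilobase lay below ABCB9 (0.719 ± 0.040), each overlapping the next. ABCA1 rose to 0.696 CPM per kilobase after ADC, where ABCA3 was at 7.79. Thus the member with the largest fold change remained more than 10 times less abundant per kilobase than ABCA3. ABCC2, ABCC3, ABCB6 and ABCA5 were at the bottom, between 0.0326 and 0.179 in PBS.

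**Figure D5:**
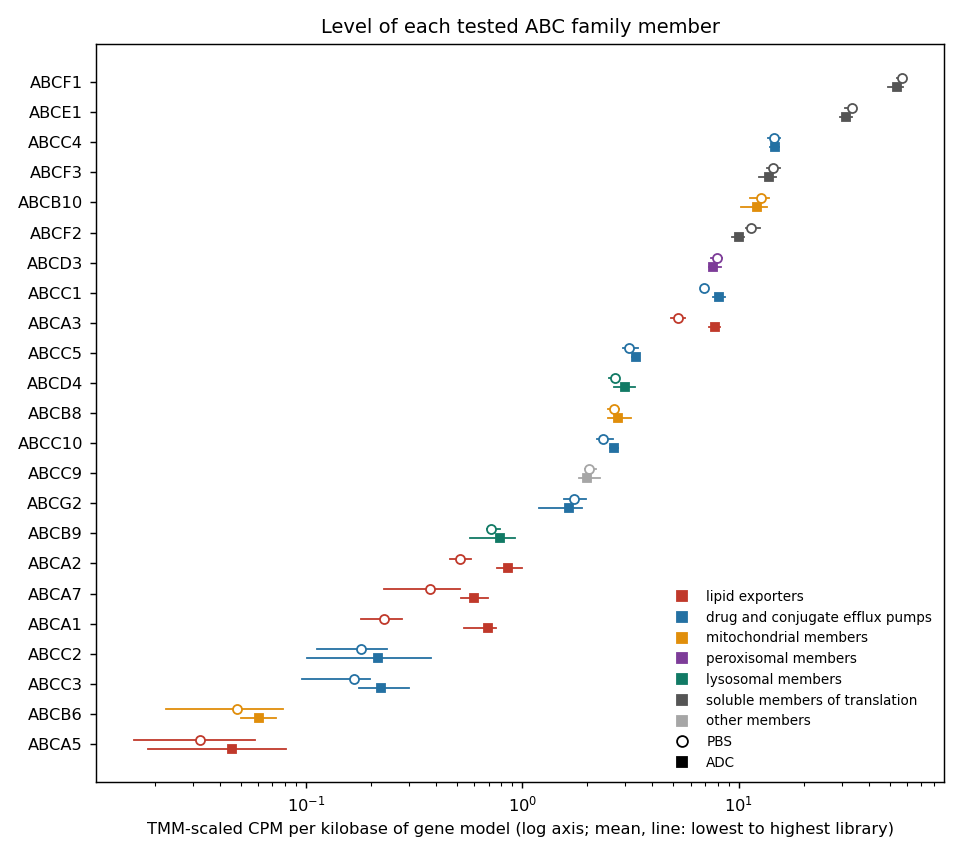
TMM-scaled CPM per kilobase of gene model (x axis, log scale) of 23 tested members, with open circles for the PBS mean, filled squares for the ADC mean and lines from the lowest to the highest of 5 libraries. ABCF1 and ABCE1 lead, and squares lie clear to the right of circles for ABCA1, ABCA2 and ABCA3.

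On hg38 per the deposited table, ABCA1 (ENSG00000165029) lies on chromosome 9 from 104781002 to 104928237, ABCA2 (ENSG00000107331) on chromosome 9 from 137007227 to 137028922, ABCA3 (ENSG00000167972) on chromosome 16 from 2275881 to 2340746 and ABCA7 (ENSG00000064687) on chromosome 19 from 1040101 to 1065572. ABCC1 (ENSG00000103222) lies on chromosome 16 from 15949577 to 16143074. None of the exonic bases of ABCA1, ABCA2, ABCA3, ABCA7 or ABCC1 overlap another gene in GENCODE release 29. The deposited values are per gene and do not separate exons or UTRs.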

How the data were processed

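Poly(A) RNA of 10 libraries was sequenced on an Illumina instrument, per the labels' protocols. The authors deposited whole-number counts per gene, not normalised. Of HISAT2, HISAT and TopHat2, which the submitters' processing notes list with the build hg38, the roles are not stated, nor are the counting tool or its use of strand. Between 65.4% and 67.3% of the values from 2 to 21 were even numbers, so both mates of a pair may be counted. All 58735 identifiers were found in GENCODE release 29, 58724 with the same start and end.

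The members, classes, lists and tests were chosen with earlier results of these data known. The filter was filterByExpr at its minimum count of 10 and minimum total of 15, and libraries were scaled by TMM (factors 0.979 to 1.02). ADC was compared with PBS over 14504 genes with the two-sided quasi-likelihood F test of edgeR 4.0.16 under R 4.3.3, and p-values were adjusted by Benjamini-Hochberg and called under 0.05. An adjusted p of a gene is from this test unless another tool, setting or left-out library is named beside it. SE was derived from F and the log2 fold change, and intervals are 95%. CPM are counts scaled to a common library total after TMM, and CPM per kilobase also divides by the deposited gene length. P-values measure the spread between these libraries, which may be technical, and no 2 replicates agreed within sampling noise (chi-square over its degrees of freedom was 5.18 to 16.5). Within-library ratios used counts plus 0.5. Some members, list genes and a planned ratio are not reported here and stand in none of the printed member and list counts. All other members are named, with each library's value for called members above 1 CPM and for ABCB1, ABCC1 and ABCG2. From each list the called genes are named. For the LXR list, the transporters TAP1 and TAP2 and some of the cell type markers, genes that were not called are also given, a choice made after their values were seen. Alternatives were DESeq2 1.42.0, limma-voom (limma 3.58.1), other scaling and filters, a replicate block, halved counts, a length trend and leaving out each library. The code was tested on simulated counts.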

Additional observations from a re-analysis of the deposited data

Results flagged for a closer look

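In 3 of 46 groups of 5 libraries, 1 library stood far from the other 4 beside the range of its group, where chance gives about 1 in 20. ABCA1 was at 6.09 CPM in ADC replicate 2, below the other treated libraries, and without that library its log2 fold change was 1.68. ABCC3 was at 0.919 CPM in PBS replicate 4, below the other PBS libraries. ABCD3 was at 63.3 CPM in ADC replicate 4, above the other ADC libraries.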

How the results depend on the processing

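The count of members called higher was 5 under every alternative that kept all libraries except the fit of every gene with a count, which called 7 (ABCB4 and ABCG8 added). Leaving out 1 library gave 5 called higher each time and 1 to 2 called lower, ABCE1 being the gene added. ABCA1, ABCA2, ABCA3, ABCA7, ABCC1 and ABCF2 passed under all 18 alternatives, with adjusted p of up to 0.045, the value of ABCF2. Among genes that were not called the sign turned without 1 library for 5 members. Their log2 fold changes over these fits ran from -0.001 (without ADC replicate 3) to 0.091 for ABCB8, from -0.030 (without ADC replicate 5) to 0.441 for ABCC2, from -0.007 (without PBS replicate 2, and -0.002 without ADC replicate 1) to 0.036 for ABCC4, from -0.071 to 0.004 (without ADC replicate 5, and 0.003 without PBS replicate 1) for ABCC9 and from -0.144 to 0.008 (without ADC replicate 1) for ABCG2. Outside the family, calls were also lost for AHR and GSTP1 with no filter (adjusted p = 0.061 and 0.055) and for GSTP1 and CDH2 scaled to library size alone (adjusted p = 0.11 and 0.061). Same-numbered libraries did not deviate together (correlations of -0.007 to 0.040, with 0 of 5 libraries correlating best with its own number). The replicate block changed no call of a member. For the ratio of ABCC1 to ABCC4 it gave a difference of 0.225 at adjusted p = 0.0625, the smallest that 5 pairs allow. The planned ratio of ABCA1 to ABCG1 was not run, since ABCG1 had no count. Counts of a few reads in 20 untested members limit what can be seen there.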

Other observations

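Pseudogene copies of family members took few counts. ABCB10P1, ABCB10P3, ABCC6P1 and ABCF2P2 had 0 in all libraries, ABCF2P1 had 0 to 1, ABCB10P4 0 to 4 and ABCC6P2 0 to 4. The transcribed pseudogene ABCA11P had single-library counts of 3 to 44 with PBS and 12 to 27 with ADC. ABCC13 had 0 in all libraries, and ABCA17P had 4 to 21 and 7 to 11.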
